A study of Mus musculus with 6 samples.

Results

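Transcription factors that mark the layers of the cerebral cortex were examined in the PFC (prefrontal cortex) of control mice and of mice with early-life stress (ELS) by social isolation. These were 9 of the 22000 gene symbols of the count table, chosen by name: Cux1, Cux2, Rorb and Pou3f2 for the upper layers, and Fezf2, Bcl11b, Tle4, Foxp2 and Tbr1 for the deep layers. All 9 were among the 13185 genes with at least 1 CPM (the counts of a gene scaled to a common library size) in all 3 mice of a group. The data were RNA-seq read counts from PFC tissue of 6 mice, with 1 library per mouse. All 6 were wild-type C57BL/6N males, given as 9 weeks old in the labels and dissected at P67 by the study's methods. The 3 ELS mice were housed alone from P21, the isolation period ran to P50, and the mice stayed in their housing until dissection. The 3 control mice came from cages of 4 males, and experimental and control mice were littermates. ELS mice were also kept under a filter cap, which control cages did not have, so isolation and cap cannot be told apart. The study assessed behaviour from P50 on and does not say whether the sequenced mice were among those tested. The comparison addresses whether gene expression in the PFC differed with the housing after weaning, isolation and cap together.

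Excitatory neurons of the cortex are laid down in layers, and neurons of different layers send their axons to different targets. Upper layer neurons mostly connect cortical areas with each other, whereas deep layer neurons include those that project to the spinal cord, the brainstem and the thalamus. Transcription factors that are restricted to some of these layers set up these fates in the embryo, partly by repressing one another, and many of them stay on in the adult, where they serve as layer markers.

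The start sites of the genes lie in different sequence contexts. RefSeq promoters on GRCm38.p6, from 250 bases before to 50 after each annotated start, were found for 8 of the 9 genes, with 11 windows in all. Foxp2 was not matched. The promoters below belong to the 2 pairs of genes whose levels ran most closely together over the mice within the upper and within the deep group (Rorb with Pou3f2, Fezf2 with Bcl11b), and to the window of Cux2 that holds a CUX motif. Sequences read 5′ to 3′ on the strand of the gene, and all 5 genes are on the minus strand. Capitals mark the motifs searched on both strands, which were ATCGAT (bound by CUX proteins), ATGCAAAT (the POU octamer), AGGTCA (the core site of nuclear receptors), AGGTGTGA (T-box), TGTTTAC (forkhead), TATAAA (the TATA box) and CCAAT.
Rorb, chr19:19111147-19111446: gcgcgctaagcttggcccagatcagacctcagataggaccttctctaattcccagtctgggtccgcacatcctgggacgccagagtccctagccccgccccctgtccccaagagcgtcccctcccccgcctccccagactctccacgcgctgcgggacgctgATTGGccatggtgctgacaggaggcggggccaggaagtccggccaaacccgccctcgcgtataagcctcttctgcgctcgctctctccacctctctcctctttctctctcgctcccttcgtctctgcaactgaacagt
Pou3f2, chr4:22488317-22488616: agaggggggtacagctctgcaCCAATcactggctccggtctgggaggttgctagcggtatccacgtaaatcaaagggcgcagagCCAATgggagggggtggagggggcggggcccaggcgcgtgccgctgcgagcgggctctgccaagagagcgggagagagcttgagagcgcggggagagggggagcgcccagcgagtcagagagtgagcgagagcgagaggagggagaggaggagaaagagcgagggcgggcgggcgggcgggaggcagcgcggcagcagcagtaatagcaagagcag
Fezf2, chr14:12345816-12346115: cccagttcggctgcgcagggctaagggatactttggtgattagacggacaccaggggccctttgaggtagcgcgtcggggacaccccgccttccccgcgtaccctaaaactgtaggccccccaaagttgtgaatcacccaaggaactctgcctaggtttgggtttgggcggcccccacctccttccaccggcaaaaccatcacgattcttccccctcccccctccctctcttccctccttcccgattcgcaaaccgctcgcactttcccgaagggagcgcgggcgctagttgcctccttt
Bcl11b, chr12:108003365-108003664: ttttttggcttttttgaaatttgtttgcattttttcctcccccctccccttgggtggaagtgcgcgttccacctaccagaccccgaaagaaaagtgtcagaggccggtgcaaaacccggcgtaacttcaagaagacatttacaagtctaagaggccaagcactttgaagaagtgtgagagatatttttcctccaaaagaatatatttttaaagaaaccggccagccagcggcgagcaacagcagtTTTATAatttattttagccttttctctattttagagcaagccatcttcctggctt
Cux2, chr5:122047776-122048075: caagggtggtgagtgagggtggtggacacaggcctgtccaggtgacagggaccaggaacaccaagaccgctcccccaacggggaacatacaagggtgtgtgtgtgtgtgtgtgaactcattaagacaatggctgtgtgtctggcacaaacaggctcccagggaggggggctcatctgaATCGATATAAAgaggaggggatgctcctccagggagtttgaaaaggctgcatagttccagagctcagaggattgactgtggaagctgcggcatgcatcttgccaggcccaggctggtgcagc
The Rorb window held 1 CCAAT, read on the opposite strand at position -88 from the start, and the Pou3f2 window held 2, at -229 and -166. No letters of the 7 motifs were found in the Fezf2 window. The Bcl11b window held TATAAA on the opposite strand at -5, beside the start itself. In the Cux2 window ATCGAT began at -72 and TATAAA at -67, so that they shared 1 base. Among all 32841 promoters of the same length, CCAAT was present in 37.4%, TATAAA in 13.6% and ATCGAT in 0.926%. The remaining shares were 16.3% for AGGTCA, 3.65% for TGTTTAC, 1.74% for ATGCAAAT and 1.28% for AGGTGTGA. Base composition varied widely, with a GC content of 63.7% at Rorb, 67.7% at Pou3f2, 61.3% at Fezf2 and 43% at Bcl11b, against a median of 52.7% over all promoters. These matches describe the letters in the windows and were not tested against the expression values.

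The genes differed in size and in the number of annotated transcripts (GENCODE M21 on GRCm38). Cux1 spans chr5:136248135-136567490 on the minus strand and has 14 transcripts. An antisense gene, Gm16599, lies opposite 1.97% of its exon bases, and no other member overlapped the exons of another gene. Pou3f2, at chr4:22482780-22488366, has 1 exon. Foxp2, at chr6:14901349-15441977 on the plus strand, has 20 transcripts and 16346 bases of exon. For each gene, at most 1.97% of its 50-base words also occurred in transcripts of another gene, and for Fezf2 none did. The strand setting of the counting is not given in the sources used here.

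Read depth was high for every member. Total counts ran from 28405795 to 35241743 per mouse, with the 3 ELS libraries above the 3 control libraries. The member counts ran from 533 for Foxp2 in control mouse 3 to 5968 for Tbr1 in ELS mouse 2. Counting error alone amounts to a coefficient of variation from 1.40% for Tbr1 to 3.94% for Foxp2, below the spread between mice for all 9 genes.

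Levels between genes were compared as CPM per kb of merged exon. Tbr1, a T-box factor of deep layer neurons that project to the thalamus, was the most abundant, with 29.5 ± 2.35 CPM per kb (SD, n = 6), and its lowest mouse lay above the highest mouse of every other member. Next came Fezf2 (12.1), Tle4 (11.4), Cux2 (10.7), Bcl11b (9.18) and Pou3f2 (8.60), whose ranges over the mice overlapped from each gene to the next. Rorb followed at 5.54 and Cux1 at 4.60, and their ranges also overlapped. Foxp2 was lowest, at 1.25 ± 0.104 CPM per kb (SD, n = 6), with no overlap with Cux1. With the length of the longest coding transcript in place of the merged exons, Rorb and Cux1 changed places (6.60 and 7.17 CPM per kb) and the other ranks stayed. Upper and deep genes were thus interleaved, with deep genes at both ends of the order.

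**Figure D1:**
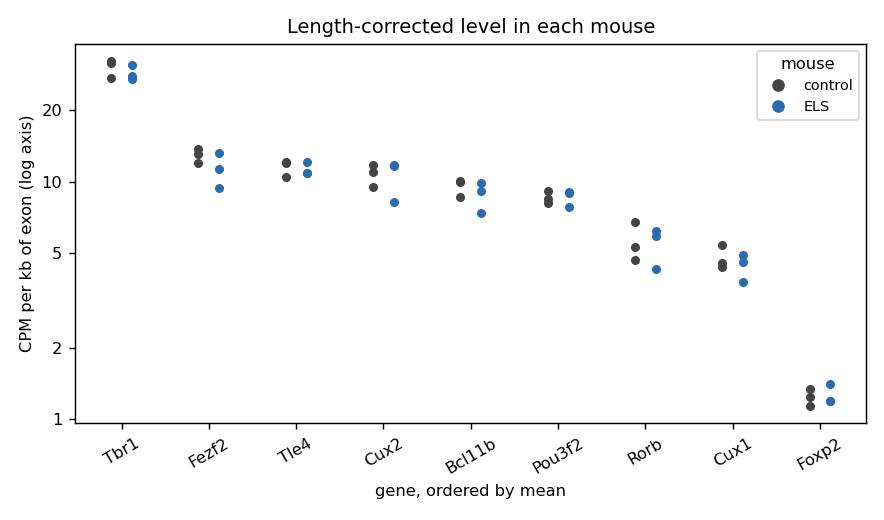
The vertical log axis gives the TMM-scaled CPM per kb of merged exon of each mouse for the 9 genes on the horizontal axis, ordered by their mean over the 6 mice. Tbr1 stands apart at the top, from 27.1 to 32.2, and Foxp2 at the bottom, from 1.14 to 1.41, with control (dark) and ELS (blue) mice intermixed for every gene.

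None of the 9 genes was called between ELS and control mice. A call by the quasi-likelihood test of edgeR required a log2 fold change beyond 0.3 in either direction at an adjusted p under 0.05, and 0.0152% of all genes tested met this. In all 9 the ranges of the 2 groups overlapped, whereas 8.28% of all genes tested had groups that did not. The adjusted p of edgeR was 0.99998 for each of the 9. No member had an unadjusted p under 0.05 in edgeR (0.0925 for Fezf2 to 0.933 for Pou3f2), against 4.23% of all genes tested. Values below are CPM scaled by TMM, and intervals of the difference are 95% intervals from the same edgeR fit. The labels number the mice and the study's methods name littermates, but neither says which mice shared a litter or cage.

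Among the upper layer genes, Cux1, a homeodomain protein of upper layer neurons involved in dendrite and spine growth, had 88.1, 108 and 91.0 CPM in control mice 1 to 3. It had 75.4, 98.4 and 92.2 CPM in ELS mice 1 to 3. The lowest value was in ELS mouse 1, and the other ELS mice lay within the control range. The means were 95.7 ± 10.8 CPM in control and 88.7 ± 11.9 CPM in ELS mice (SD over 3 mice each), for a log2 fold change of -0.11 (95% CI = -0.33 to 0.11).
Its close relative Cux2, which is more tightly restricted to upper layer excitatory neurons, had 111, 118 and 96.2 CPM in control mice. In ELS mice it had 83.1, 118 and 119 CPM, so that ELS mouse 1 was again the lowest and ELS mouse 3 the highest. The means were nearly equal (control = 109 ± 11.3 CPM, ELS = 107 ± 20.5 CPM, SD over 3 mice each, log2 fold change = -0.02, 95% CI = -0.29 to 0.24).
Rorb, an orphan nuclear receptor and a marker of layer 4, had 59.1, 75.3 and 52.0 CPM in control mice and 47.4, 65.8 and 68.5 CPM in ELS mice. It was the most variable member, with 1.59 times as much in control mouse 2 as in ELS mouse 1. The difference between groups was small beside that spread (control = 62.1 ± 11.9 CPM, ELS = 60.6 ± 11.4 CPM, SD over 3 mice each, log2 fold change = -0.04, 95% CI = -0.35 to 0.27).
Pou3f2, a POU domain factor also named Brn2 that acts in upper layer neurons from their birth, had 47.1, 51.1 and 45.6 CPM in control mice. In ELS mice it had 43.8, 50.3 and 50.5 CPM, in the same order of mice as Rorb. It was the steadiest of the upper genes (control = 48.0 ± 2.87 CPM, ELS = 48.2 ± 3.83 CPM, SD over 3 mice each, log2 fold change = 0.0068, 95% CI = -0.16 to 0.18). In linear terms, its interval ran from 0.892 to 1.13 times the control level, the narrowest among the upper genes, and that of Rorb from 0.786 to 1.21 times.

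Among the deep layer genes, Fezf2, a zinc finger factor needed for the subcerebral projection neurons of layer 5, had 41.7, 39.8 and 36.7 CPM in control mice 1 to 3. In ELS mice it had 40.1, 34.4 and 28.7 CPM. Both lowest values were in ELS mice, while ELS mouse 1 lay within the control range. Over all 6 mice the difference was the largest of the 9 (control = 39.4 ± 2.54 CPM, ELS = 34.4 ± 5.71 CPM, SD over 3 mice each, log2 fold change = -0.20, 95% CI = -0.43 to 0.04). Without ELS mouse 3 the difference of Fezf2 (-0.08) was smaller than those of Cux1 (-0.14), Rorb (-0.13) and Cux2 (-0.11). Without control mouse 1 it was smaller than that of Cux1 (-0.15 against -0.17).
Bcl11b, also named Ctip2, acts downstream of Fezf2 in the axon growth of the same neurons, and had 82.1, 80.6 and 69.8 CPM in control mice. In ELS mice it had 80.5, 74.0 and 59.9 CPM, so that ELS mouse 3 was the lowest, as for Fezf2. The other ELS mice lay within the control range (control = 77.5 ± 6.74 CPM, ELS = 71.5 ± 10.5 CPM, SD over 3 mice each, log2 fold change = -0.12, 95% CI = -0.34 to 0.11).
Tle4, a corepressor of the Groucho family that binds DNA only through other factors and marks layer 6 neurons, had 68.6, 69.2 and 59.8 CPM in control mice. In ELS mice it had 69.3, 62.0 and 62.2 CPM, and both groups covered nearly the same range (control = 65.9 ± 5.27 CPM, ELS = 64.5 ± 4.16 CPM, SD over 3 mice each, log2 fold change = -0.03, 95% CI = -0.20 to 0.14).
Foxp2, a forkhead factor of layer 6 neurons known for its role in speech, had 22.0, 20.2 and 18.6 CPM in control mice and 23.1, 19.5 and 19.5 CPM in ELS mice. The highest value was in ELS mouse 1 and the lowest in control mouse 3 (control = 20.3 ± 1.69 CPM, ELS = 20.7 ± 2.07 CPM, SD over 3 mice each, log2 fold change = 0.03, 95% CI = -0.18 to 0.24).
Tbr1 had 177, 173 and 150 CPM in control mice and 152, 171 and 149 CPM in ELS mice, and both groups held a mouse near the lowest value. Its means were 166 ± 14.7 CPM in control and 157 ± 11.7 CPM in ELS mice (SD over 3 mice each), for a log2 fold change of -0.08 (95% CI = -0.26 to 0.10).

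**Figure D2:**
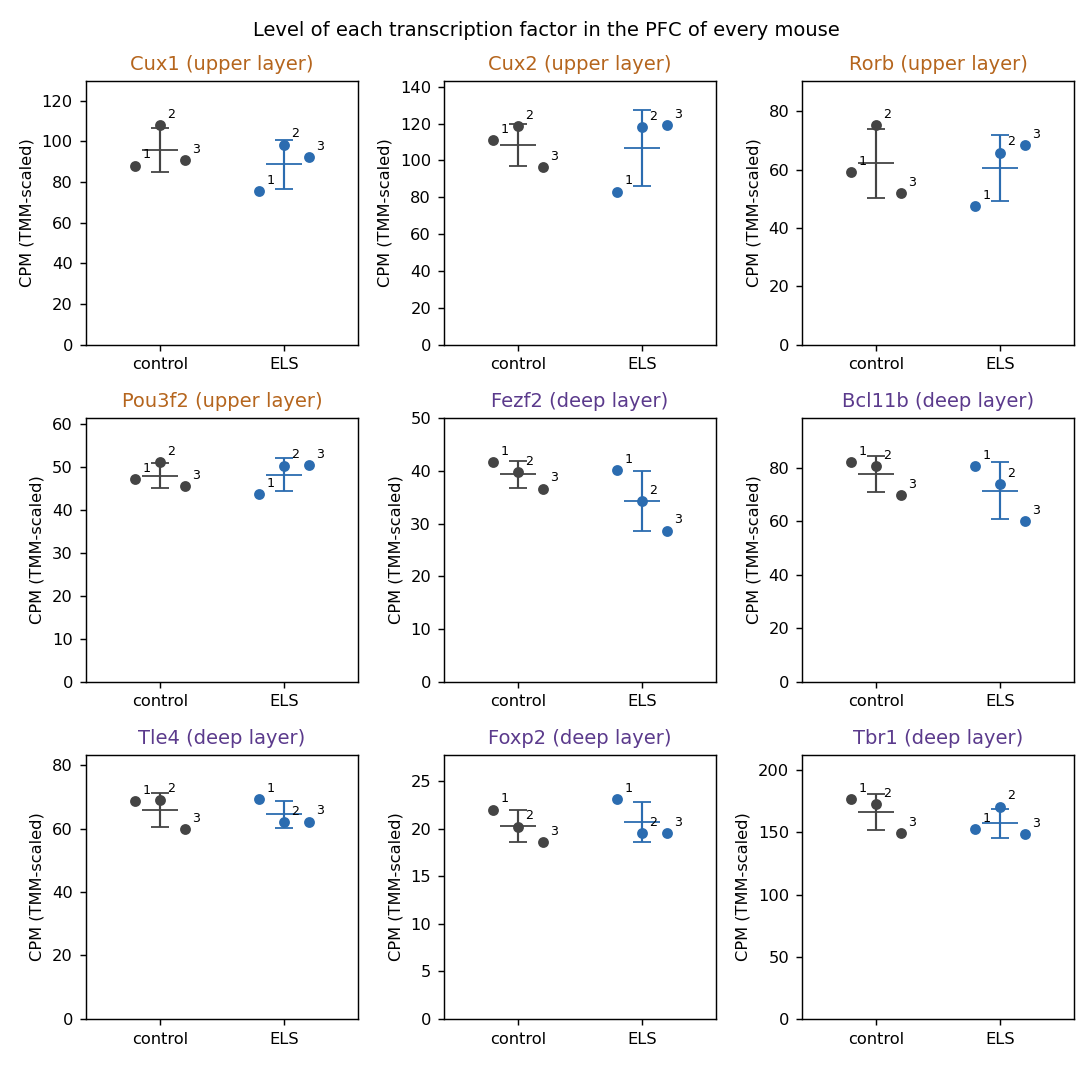
Each panel gives the TMM-scaled CPM of 1 gene from 0 upward, with a point for each of the 3 control (dark) and 3 ELS (blue) mice, labelled by number, and a bar at the mean with its SD. The groups overlap in all 9 panels, ELS mouse 1 is the lowest of all mice for Cux1, Cux2, Rorb and Pou3f2, and ELS mouse 3 is the lowest for Fezf2, Bcl11b and Tbr1.

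**Figure D3:**
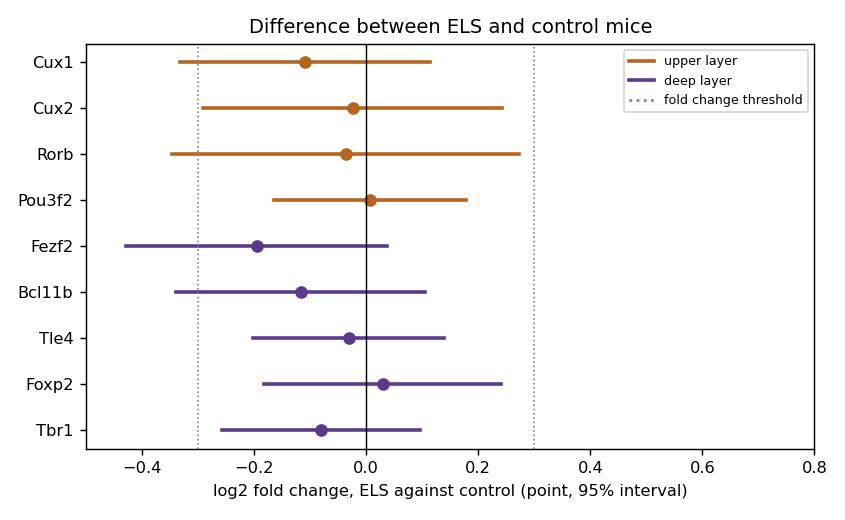
The horizontal axis gives the log2 fold change of ELS against control mice for each gene, with its 95% interval from edgeR's quasi-likelihood fit and dotted lines at the threshold of 0.3 on either side. Every interval includes 0, and that of Fezf2 reaches lowest, to -0.43.

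Taken by layer, 3 of the 4 upper genes and 4 of the 5 deep genes had a lower mean in ELS mice, with none of these differences past the test. This count depended on single mice, since 4 of the 9 genes (1 of them upper, Cux1) were lower without control mouse 2 and all 9 without control mouse 3. The median log2 fold change was -0.03 for the upper and -0.08 for the deep genes, against -0.0046 over all genes tested, of which 52.5% were lower in ELS mice. Layer markers in a bulk tissue sample cannot tell fewer cells of a layer from less RNA per cell. The intervals left room for differences of some size. The edgeR intervals of Cux1, Rorb, Fezf2 and Bcl11b reached past the fold threshold of 0.3 on the lower side, whereas those of Cux2, Pou3f2, Tle4, Foxp2 and Tbr1 lay within it on both sides.

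Striatal tissue beside the PFC could add to the levels of some deep genes, because striatal projection neurons express Bcl11b, Foxp2 and Tle4 too. Of 12 striatal marker genes, Drd1 was not listed in the table and Isl1 was below the filter, at 0.0352 to 0.795 CPM. The summed CPM of the 11 listed, on total counts, reached 307, 336 and 576 among controls 1 to 3, and 575, 370 and 397 among ELS mice 1 to 3. Control mouse 3 and ELS mouse 1 thus stood above the other 4 mice, with 1 such mouse in each group. Among the other 4 mice both ELS sums lay above both control sums. Over all 6 mice, 9 of the 10 striatal markers tested had a higher mean in ELS mice (median log2 fold change 0.18), with 0 called. Of all genes tested, 52.5% had a lower mean in ELS mice and 0.0152% were called. Drd2, the dopamine receptor of indirect pathway neurons, had 10.5 CPM in control mouse 3 and 11.6 CPM in ELS mouse 1. It had 3.38 to 4.96 CPM in the others. Markers of cortical excitatory neurons (5 genes, Slc17a7 among them) summed to 5430 and 5220 CPM in these mice and to 5726 to 6008 CPM in the others. Oligodendrocyte markers (5 genes) summed to 6584 and 6028 CPM in them, against 4997 to 5512 CPM in the others. For Tle4 and Foxp2, control mouse 3 was the lowest of the 6 mice and ELS mouse 1 the highest. Bcl11b had 69.8 CPM in control mouse 3 and 80.5 CPM in ELS mouse 1.

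With both mice left out, which leaves 2 mice per group and higher striatal sums in the ELS mice (370 and 397 CPM against 307 and 336), all 5 deep genes had a lower mean in ELS mice, though none passed the test. This setting was chosen after the data were seen. Control mouse 3 had the lowest control value of all 5 deep genes. ELS mouse 1 had the highest ELS value of Fezf2, Bcl11b, Tle4 and Foxp2. Leaving both out thus had to lower the fold changes of Fezf2, Bcl11b, Tle4 and Foxp2. Fezf2 then had a log2 fold change of -0.37 (edgeR, unadjusted p = 0.000837, adjusted p = 0.143), Bcl11b of -0.28 (adjusted p = 0.272 in edgeR) and Tle4 of -0.15 (adjusted p = 0.539 in edgeR). Foxp2, at 0.03 over all mice, stood at -0.11 and Tbr1 at -0.13. None of the 9 was called, while 27 of all 13241 genes tested were, and 3 of the 9 against 8.74% of all genes had an unadjusted p under 0.05 in edgeR. These 3 (Fezf2, Bcl11b and Tle4) ran together over the 6 mice, with Pearson's r of log2 CPM from 0.691 to 0.952. They are therefore not separate results. The upper genes stayed near 0, from -0.04 for Cux1 to 0.05 for Cux2. With the striatal score as a covariate over all 6 mice, the log2 fold change of Fezf2 was -0.21 (edgeR, unadjusted p = 0.0350, adjusted p = 0.644), and 7.09% of all genes had an unadjusted p under 0.05. The other deep genes were nearer to 0 in that fit than with the 2 mice left out, at -0.11 for Bcl11b, -0.02 for Tle4, 0.03 for Foxp2 and -0.03 for Tbr1. The part of striatal tissue in the levels of Bcl11b, Foxp2 and Tle4 was not tested.

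Correlations between the genes over the mice were positive for every pair within a layer, though none passed adjustment. This was noticed after the values were seen, and it concerns single mice rather than the groups. Pearson's r of log2 CPM was computed for all 36 pairs over the 6 mice, with exact permutation over the 720 pairings. All 6 pairs of upper genes were positive, from 0.829 to 0.983 with a median of 0.909, and all 10 pairs of deep genes were positive, from 0.220 to 0.952 with a median of 0.659. Of the 20 pairs of an upper and a deep gene 4 were positive, each of them with Tbr1, and the range was -0.639 to 0.506. After Benjamini-Hochberg adjustment over the 36 pairs none had a p under 0.05, and the smallest adjusted p was 0.05 for r and 0.1 for rho (exact permutation tests, two-sided). Before adjustment, 6 of 6 upper pairs, 2 of 10 deep pairs and 0 of 20 mixed pairs had a p under 0.05 in the exact permutation test of r. The 6 upper pairs come from 4 genes and are not separate results. The share over pairs of all genes was not computed, so these counts are not a trait of layer genes. Among 10074 other genes, 44 to 266 had an r above 0.9 with a given member.

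Rorb and Pou3f2 were the closest pair, with an r of 0.983 (exact permutation p = 0.00139, adjusted p = 0.05) and the same order of all 6 mice (rho = 1, exact permutation p = 0.00278, adjusted p = 0.1). Without the 2 mice farthest from the median of Rorb their r was 0.980. Fezf2 and Bcl11b, which act in 1 pathway in subcerebral neurons, had an r of 0.952 (exact permutation p = 0.0111, adjusted p = 0.09) and a rho of 0.886 (exact permutation p = 0.0333, adjusted p = 0.15), and their r was 0.963 without the 2 farthest mice. Tle4 and Foxp2, both of layer 6, had an r of 0.853 (exact permutation p = 0.025, adjusted p = 0.129), a rho of 0.886 (exact permutation p = 0.0333, adjusted p = 0.15), and an r of 0.763 without the 2 farthest mice. The paralogs Cux1 and Cux2 had the lowest r of the upper pairs, at 0.829 (exact permutation p = 0.0361, adjusted p = 0.163), with a rho of 0.771 (exact permutation p = 0.103, adjusted p = 0.336). Their r fell to 0.432 without ELS mouse 1 and control mouse 2, and so rests in part on those mice.

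With the mean of each group taken off, the upper pairs ran from 0.854 to 0.990 and the deep pairs from 0.294 to 0.965. With control mouse 3 and ELS mouse 1 left out, the 6 upper pairs over the other 4 mice ran from 0.629 to 0.975 and the 10 deep pairs from 0.611 to 0.984. The deep pairs were less steady under other choices of mice. Of the 10, 9 were positive without control mouse 1 (lowest r -0.03), 9 without control mouse 3 (lowest r -0.06, Foxp2 with Tbr1) and 9 without the 2 mice farthest from the median (Bcl11b with Tbr1 at -0.04). ELS mouse 1 was the mouse on which the upper pairs leaned most, and without it the lowest upper r was 0.494 and 14 of the 20 mixed pairs were positive. The points share library depth and the composition of each tissue piece, whose parts in the correlations were not tested.

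**Figure D4:**
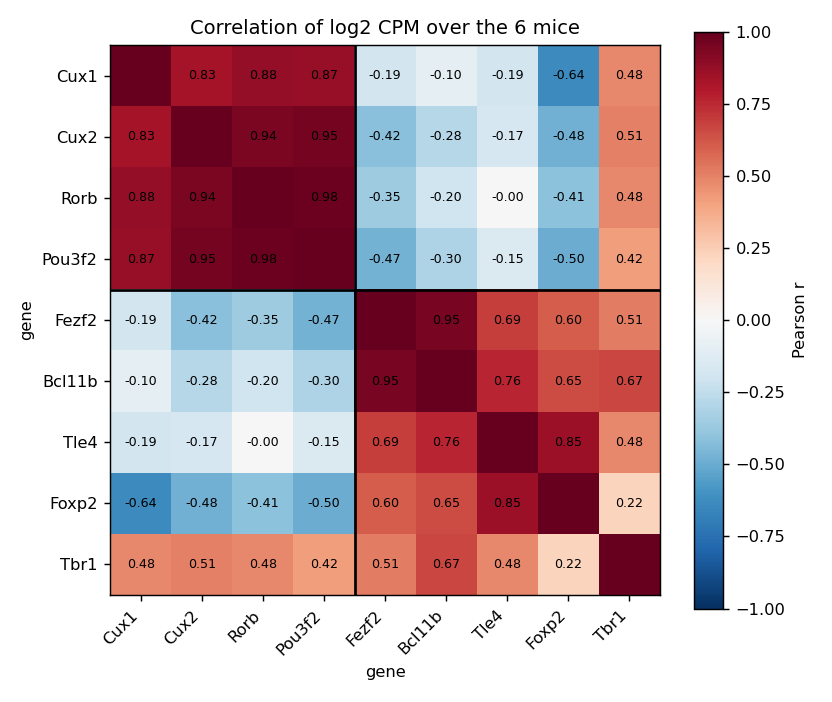
The matrix gives Pearson's r of log2 CPM over the 6 mice for each pair of the 9 genes, on a colour scale from -1 (blue) to 1 (red), with lines between upper and deep genes. Values in the upper block lie between 0.83 and 0.98 and in the deep block between 0.22 and 0.95, while the mixed block is negative except along Tbr1.

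Each mouse can be placed by its upper and deep genes together. The mean log2 CPM of the 4 upper genes minus that of the 5 deep genes came to 0.222, 0.483 and 0.343 for controls 1 to 3, and to -0.0023, 0.506 and 0.653 for ELS mice 1 to 3. ELS mouse 1 was the lowest and ELS mouse 3 the highest of all 6, so that the ELS mice enclosed the control mice on both sides. The means were 0.349 ± 0.131 for controls and 0.385 ± 0.344 for ELS mice (SD, n = 3 each), a difference of 0.04 that is smaller than either SD and was not tested. The 2 ELS mice at the ends of this scale differed in opposite ways. ELS mouse 1 had upper genes 0.28 below the mean of all mice and deep genes 0.09 above it, whereas ELS mouse 3 had upper genes 0.10 above and deep genes 0.18 below it (log2 CPM).

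**Figure D5:**
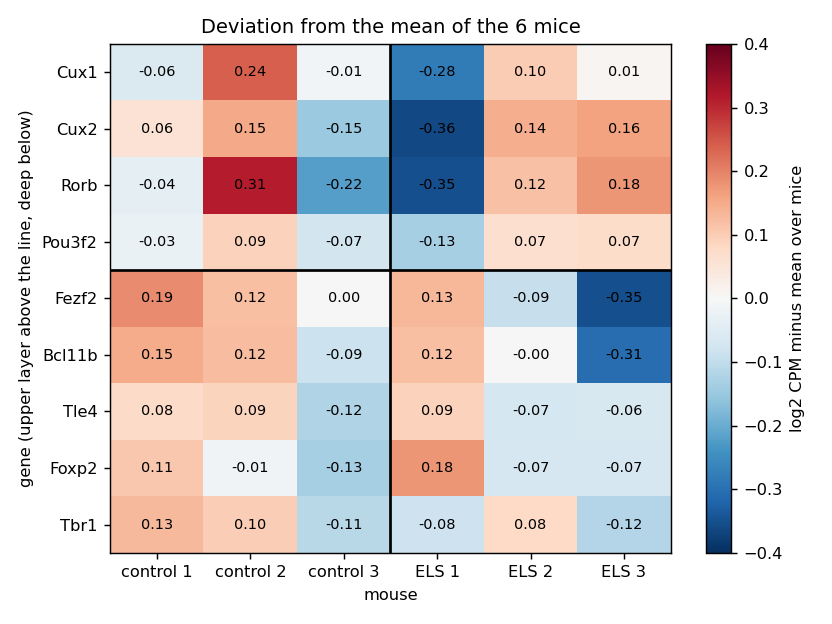
Rows are the 9 genes and columns the 6 mice, and each cell gives the log2 CPM of that mouse minus the mean of the 6 mice (blue below, red above). ELS mouse 1 is below the mean for all 4 upper genes, by 0.28 for Cux1, 0.36 for Cux2, 0.35 for Rorb and 0.13 for Pou3f2, and ELS mouse 3 is below it for all 5 deep genes, most for Fezf2 and Bcl11b.

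Paralogs of the 9 genes were taken from a list. Of 18 listed, 17 were in the table and 13 passed the filter, and 0 of these were called or had an unadjusted p under 0.05 in edgeR, where the shares over all genes tested were 0.0152% and 4.23%. Their median log2 fold change was -0.0091, and the values ran from -0.15 for Rora, the relative of Rorb, to 0.26 for Pou3f4. Bcl11a, the relative of Bcl11b, had a log2 fold change of -0.08, and Foxp1, the relative of Foxp2, of -0.06. Eomes and Tbx21, the T-box relatives of Tbr1, were below the filter, at no more than 0.489 CPM in any mouse.

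Of 23 other transcription regulators of cortical excitatory neurons, all passed the filter and 0 were called, against 0.0152% of all genes tested. The median log2 fold change was 0.03. Bcl6, a repressor that drives neuronal differentiation, had the lowest value, with 38.8, 31.2 and 31.0 CPM in control mice and 28.04, 28.4 and 25.2 CPM in ELS mice. Each ELS value lay below each control value, but the log2 fold change of -0.31 did not pass (edgeR, unadjusted p = 0.00800, adjusted p = 0.949). Sox11, an SRY-box factor of young neurons, had 18.5 to 19.7 CPM in control and 21.5 to 22.8 CPM in ELS mice, a log2 fold change of 0.19 (edgeR, unadjusted p = 0.0315, adjusted p = 0.99998). Neurod1 had the highest value of the list, at 0.22. Groups did not overlap for 5 of the 23, against 8.28% of all genes tested, with Bcl6 lower and Ldb2, Lmo4, Sox11 and Nfia higher in ELS mice.

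Genes listed as layer markers, which are no transcription factors, had 0 calls in any list, against 0.0152% of all genes tested. Their expression in other layers or cell types was not examined. All 6 upper layer markers had a higher mean in ELS mice (median log2 fold change 0.14), from 0.02 for Cartpt to 0.27 for Otof. Calb1, a calcium-binding protein, was the only one with an unadjusted p under 0.05 (edgeR, log2 fold change 0.18, adjusted p = 0.99998). All 6 layer 4 markers had a lower mean (median -0.20), from -0.34 for Scnn1a to -0.01 for Endou, and none had an unadjusted p under 0.05 in edgeR. Their summed CPM was lowest in ELS mouse 1, at 92.9, and highest in control mouse 2, at 152, the same mice that were lowest and highest for Rorb. Scnn1a and Endou were near the filter, at 1.62 to 3.65 CPM. The sequenced tissue is given only as PFC, so it is not known which cortical areas, or how much layer 4, each piece held. The 10 layer 5 markers tested had a median of 0.0066, from -0.18 for Fam84b to 0.38 for Htr2c, a serotonin receptor (edgeR, unadjusted p = 0.0113, adjusted p = 0.970). Of 11 layer 6 and 6b markers tested, 8 had a lower mean (median -0.10), from -0.36 for Thsd7b to 0.31 for Oprk1, the kappa opioid receptor (edgeR, unadjusted p = 0.0169, adjusted p = 0.99998). Groups did not overlap for 2 of these 11, against 8.28% of all genes tested, with Oprk1 higher and Syt6 lower in ELS mice. Syt6, a synaptotagmin of layer 6, had 27.9, 29.3 and 27.5 CPM in control mice and 26.9, 23.6 and 20.3 CPM in ELS mice (edgeR, log2 fold change -0.26, unadjusted p = 0.0219, adjusted p = 0.99998).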

How the data were processed

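The authors trimmed reads, aligned them to mm10 with STAR and kept uniquely mapped reads for counting per gene with HTSeq. The submitters' processing notes name STAR 2.7.1a and HTSeq 0.9.1, whereas the paper names another STAR version. The labels name a TruSeq stranded kit and the paper KAPA kits. The annotation release and the strand setting of the counting are not given in the sources used here. The deposited values are raw read counts for each mouse without normalization, listed by gene symbol. Columns named for social isolation were taken as the ELS mice with the same number.

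The filter asked for 1 CPM or more throughout the control or throughout the ELS mice. TMM factors were computed, and condition was tested with edgeR 4.0.16 (quasi-likelihood) in R 4.3.3 with Benjamini-Hochberg adjustment over 13185 genes. The study used DESeq; DESeq2 1.42.0, a likelihood ratio test, limma 3.58.1 (voom), other scalings and filters, a striatal covariate, a replicate block, thinned libraries and leaving out mice were alternatives. Correlations between members, their variants and the fit without 2 mice were added after seeing the data. Standard errors come from the F statistic, and the 95% intervals use these and the total degrees of freedom. The edgeR test was also run on simulated counts, with the outcome not reported here. Marker sums are CPM on total counts, without TMM.

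The members and gene lists were chosen with earlier results of these data known. The genes named are all members, genes of the lists with an unadjusted p under 0.05, the extremes of each layer, paralog and factor list (not of the cell type marker lists), and the 2 genes of at least 10 CPM most correlated with each member, of which 1 is not reported here. Genes of the lists whose groups do not overlap, and Drd1, Drd2, Isl1, Slc17a7, Bcl11a, Foxp1, Eomes and Tbx21, were named after the values were seen. A planned correlation of each member with the striatal score was not made, because the 6 mice fell into 2 with high and 4 with low scores. Same-numbered mice of the groups deviated with correlations of -0.12, 0.21 and -0.03, so the numbers were not taken to pair the mice. No pair of libraries of a group agreed within sampling noise (chi-square per degree of freedom 6.25 or more). Nothing says that mice came from separate litters, and p-values measure the spread between these mice.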

Additional observations from a re-analysis of the deposited data

How the results depend on the processing

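None of the 9 genes was called under any of the 18 alternatives, and the lowest adjusted p of a member was 0.143. Over members and alternatives, 145 of 162 fold changes kept their direction and 17 changed it, all of them in Cux2, Rorb, Pou3f2, Tle4 and Foxp2, whose log2 fold changes lay within 0.04 of 0. Cux2 and Rorb were above 0 with the striatal covariate (0.059 and 0.0656) and with both mice high in striatal markers left out (0.0503 and 0.00198), and Foxp2 was at -0.11 with the latter. With 1 mouse left out at a time, the log2 fold change ran from -0.11 to 0.12 for Cux2, from -0.15 to 0.12 for Rorb, from -0.0296 to 0.0694 for Pou3f2, from -0.10 to 0.0058 for Tle4, and from -0.0586 to 0.0926 for Foxp2. Cux1, Fezf2, Bcl11b and Tbr1 were below 0 in all 18, but with 1 mouse left out Cux1 ran from -0.19 (without ELS mouse 2) to -0.0072 (without ELS mouse 1), Bcl11b from -0.21 (without ELS mouse 1) to -0.0054 (without ELS mouse 3), and Tbr1 from -0.15 (without control mouse 3) to -0.04 (without control mouse 1). With 1 mouse left out Fezf2 ran from -0.32 (without ELS mouse 1) to -0.08 (without ELS mouse 3). It was -0.37 without both control mouse 3 and ELS mouse 1. Fezf2 had an unadjusted p under 0.05 in edgeR without control mouse 3, without ELS mouse 1 and without both. The same held with the striatal covariate and with the replicate block (-0.21, adjusted p = 0.99997 in edgeR). Tbr1 also had such a p without control mouse 3 (-0.15, adjusted p = 0.414). The share of all genes with such a p in these 5 fits was 11.7%, 3.53%, 8.74%, 7.09% and 4.35%.

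The number of all genes called was more sensitive. It was 2 in the reported fit, 18 by DESeq2, 28 by the likelihood ratio test, 4 without a filter beyond 1 read, 30 with the striatal covariate, 7 with the replicate block and 27 without the 2 mice high in striatal markers. It ran from 1 to 29 with 1 mouse left out, with 29 without control mouse 3. The causes were not tested. The difference in upper minus deep level was 0.04 and ran from -0.10 (without ELS mouse 3) to 0.23 (without ELS mouse 1) with 1 mouse left out. It was 0.10 without Bcl11b, Foxp2 and Tle4, and -0.03 with medians in place of means. The median r of upper pairs was 0.743 without the 2 mice farthest from the median, from 0.909. The correlation with the striatal score was not made, so no other setting of it gave a value. With 3 mice per group, the spread between mice and not the read depth limits the precision.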

Other observations

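For each layer gene, the genes whose log2 CPM over the 6 mice was most like it were sought among 10074 genes with a mean of at least 10 CPM. The r values are a description, since the highest of so many values over 6 mice is always high. They were Frmpd1 (0.996) and Dlgap3 (0.996) for Rorb, Rcor3 (0.996) and Cbx6 (0.994) for Pou3f2, Gpr61 (0.995) and Cplx2 (0.991) for Cux2, and Enah (0.987) and Trim37 (0.984) for Cux1. Deep genes were closest to Pcsk1 (0.982) for Bcl11b, Fam210a (0.993) and Xrcc5 (0.989) for Fezf2, Hnrnph1 (0.999) and Papss2 (0.996) for Tle4, Trpc4 (0.993) and Stau1 (0.992) for Foxp2, and Atxn1l (0.993) and Clip1 (0.991) for Tbr1. An r above 0.9 was reached by 134 to 254 genes for the upper members, by 266 for Tbr1, and by 44 to 55 for the other deep members.

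Markers of other cell types gave no call between the groups in any of the 11 lists, against 0.0152% of all genes tested. Groups did not overlap for 3 of the 49 markers tested (6.12%), against 8.28% of all genes tested, with Cx3cr1 of microglia (log2 fold change 0.13) and Gnb4 of claustrum higher and Aldh1l1 of astrocytes lower (-0.13) in ELS mice. Summed CPM was 811 to 873 in control and 813 to 865 in ELS mice for interneuron markers, 1269 to 1477 and 1314 to 1441 for astrocyte markers, and 254 to 266 and 260 to 274 for microglia markers. Endothelial markers summed to 131 to 150 and 135 to 161, oligodendrocyte precursor markers to 55.0 to 65.5 and 61.1 to 72.9, and claustrum and insula markers to 76.4 to 96.8 and 92.5 to 99.7 CPM. Choroid plexus markers (at most 3.21 CPM) and olfactory bulb markers (at most 1.74 CPM) were near 0 in every mouse. An unadjusted p under 0.05 in edgeR was found for Adarb2 of the interneuron list (log2 fold change 0.27), Cldn5 of the endothelial list (0.31) and Gnb4 of the claustrum list (0.23), with adjusted p of 0.99998, 0.970 and 0.970.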
